A study of Mus musculus with 4 samples.

Results

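In primary progenitor cells of the mouse salivary gland epithelium, 981 of 4130 peaks of the transcription factor p63 (23.8%, Wilson 95% interval 22.5 to 25.1%) lay at least 1000 and less than 10000 bases from the nearest peak of acetylated histone H3 (H3K27ac). These p63 peaks were chosen by that rule alone. The distance is the number of bases between the edges of the p63 peak and of the nearest H3K27ac peak, on either side, in 2 deposited peak lists on the mouse genome mm9. Their distances to H3K27ac, and the numbers below that follow from the same 2 lists, are therefore given as descriptions with no test. All 981 are counted in every value below, since the lists hold no score on which a peak could be left out.

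The mice were adult, and the samples were a chromatin immunoprecipitation (ChIP) with the mouse monoclonal antibody 4A4 to p63, an H3K27ac ChIP and a separate input library for each. There were thus 4 libraries in 4 groups of 1. All 4 came from p63 wild-type mice aged 12 weeks, and no group carried a mutation or a treatment. Whether animals were pooled is not stated in the labels. Each list sets 1 ChIP library against 1 input, so there is no replicate check on any peak, and read depth is not known. Without read numbers, an absent H3K27ac peak does not show that acetylation is absent. The lists hold no measure of cell type markers, so the labelled cell type was not checked. Wilson, Poisson and order-statistic intervals below cover counting error only and treat peaks as independent.

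p63 belongs to the p53 family, and basal cells of stratified and glandular epithelia depend on it; in the salivary gland it marks basal and myoepithelial cells. In skin keratinocytes it is known to bind enhancers and also sites in chromatin that is closed or weakly active. H3K27ac is placed by the acetyltransferases p300 and CBP at active promoters and enhancers, on the nucleosomes that border a bound factor.

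The other p63 peaks fell into 4 classes by the same distances. They were 1439 peaks that overlapped H3K27ac by at least 1 base, 471 with H3K27ac within 1 kb on both sides, 914 with H3K27ac within 1 kb on 1 side only, and 325 at 10 kb or more. At the lower bound the nearest members were chr17:62637355-62637541, at 1000 bases, and chr14:52550572-52550750, at 1005 bases. The peaks just outside it were chr16:97990769-97990915, at 998 bases, and chr1:138111218-138111376, at 996 bases. At the upper bound the last members were chr18:84588485-84588702, at 9957 bases, and chr18:76456633-76456765, at 9836 bases. The next p63 peaks beyond it were chr9:94508314-94508552, at 10046 bases, and chr1:14151554-14151673, at 10078 bases. No break in the distances was seen at either bound.

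Most of the 981 p63 peaks lay in the nearer part of the range. The median distance was 3346 bases (quartiles 1940 and 5411). In steps of 1 kb the counts were 258, 179, 142, 112, 81, 77, 56, 43 and 33, so each step held fewer peaks than the one before it. The nearest H3K27ac peak was at the lower coordinate for 492 of the 981 (50.2%, interval 47.0 to 53.3%), so neither side was favoured beyond counting error.

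Part of this decline follows from the genome, since less sequence lies at each further step from an H3K27ac peak. The p63 midpoints were therefore also counted per Mb of sequence at each distance. Sequence 1 to 10 kb from H3K27ac made up 1166 Mb, or 45.4% of the sequence between the outermost peaks of each chromosome, and held 1012 p63 midpoints, or 0.868 per Mb (Poisson 95% interval 0.815 to 0.923). Sequence at 10 kb or more held 0.305 per Mb (interval 0.273 to 0.341), and sequence inside H3K27ac peaks 16.1 per Mb (interval 15.0 to 17.3). The midpoints number more than 981 because a midpoint lies farther from H3K27ac than the edge of its peak.

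The density fell within the range as well, though less steeply than close to the H3K27ac peaks. It was 1.23 per Mb (interval 1.09 to 1.38) at 1 to 2 kb, 0.827 (interval 0.681 to 0.995) at 4 to 5 kb and 0.487 (interval 0.339 to 0.678) at 9 to 10 kb. The value at 9 to 10 kb lay close to the 0.476 per Mb (interval 0.414 to 0.545) at 10 to 20 kb. Nearer to H3K27ac the density was 17.5 per Mb under 200 bases, 6.27 at 200 to 500 bases and 2.14 at 500 to 1000 bases. Beyond 50 kb it was 0.0733 per Mb (interval 0.0435 to 0.116), where the span also holds stretches in which no read can be placed.

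**Figure D1:**
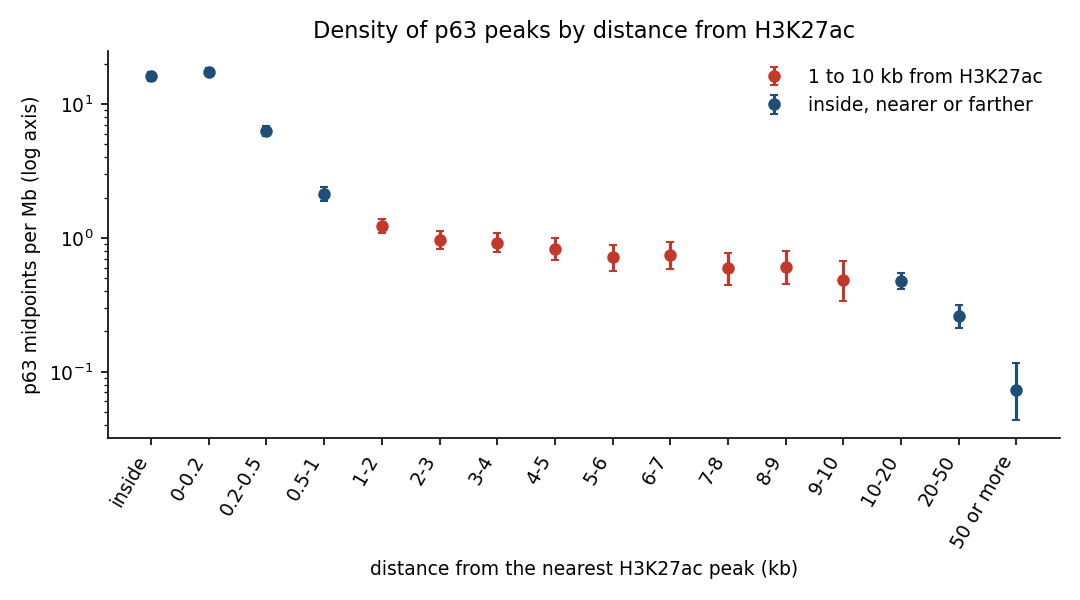
Number of p63 midpoints per Mb of mm9 sequence (log axis) against the distance of that sequence from the nearest H3K27ac peak in kb, with exact Poisson 95% intervals as bars; red points mark 1 to 10 kb. The red points run from 1.23 per Mb at 1 to 2 kb to 0.487 per Mb at 9 to 10 kb, below the points nearer to H3K27ac and above those beyond 20 kb.

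The p63 peaks sat in gaps of acetylation that were mostly shorter than 50 kb. The stretch free of H3K27ac around a member had a median length of 15.9 kb (quartiles 9.71 and 24.1 kb). It was shorter than 5 kb for 44 members, 5 to 10 kb for 212, 10 to 20 kb for 372, 20 to 50 kb for 293, 50 to 100 kb for 54 and 100 kb or more for 6. The H3K27ac peak on the farther side was at a median of 11.3 kb (quartiles 6.71 and 19.2 kb).

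Acetylation lay within 10 kb on both sides for 436 of the 981 p63 peaks (44.4%, interval 41.4 to 47.6%), and on 1 side only for the other 545. This share was 55.4% for members at 1 to 2 kb, 51.5% at 2 to 5 kb and 24.1% at 5 to 10 kb. The definition fixes part of this decline. The farther side must lie between the member's own distance and 10 kb, a range that shrinks as that distance grows. The share among all members depended on how much of the H3K27ac list was used. With only rows 1 to 91878 of that list, which appears to be ranked, it was 26.1%. Among all sequence 1 to 10 kb from H3K27ac, read every 1000 bases, 31.0% had H3K27ac within 10 kb on both sides. That value lies 13.5 percentage points under the share of the p63 peaks and outside its interval. The sequence lay farther from H3K27ac than the members, at a median of 4106.5 bases against 3346. Under 2 kb lay 19.2% of the sequence and 26.3% of the members. The 2 shares were not matched for distance, so how much of their difference goes with distance was not tested. The 31.0% is a description of the sequence in that range and not a test.

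**Figure D2:**
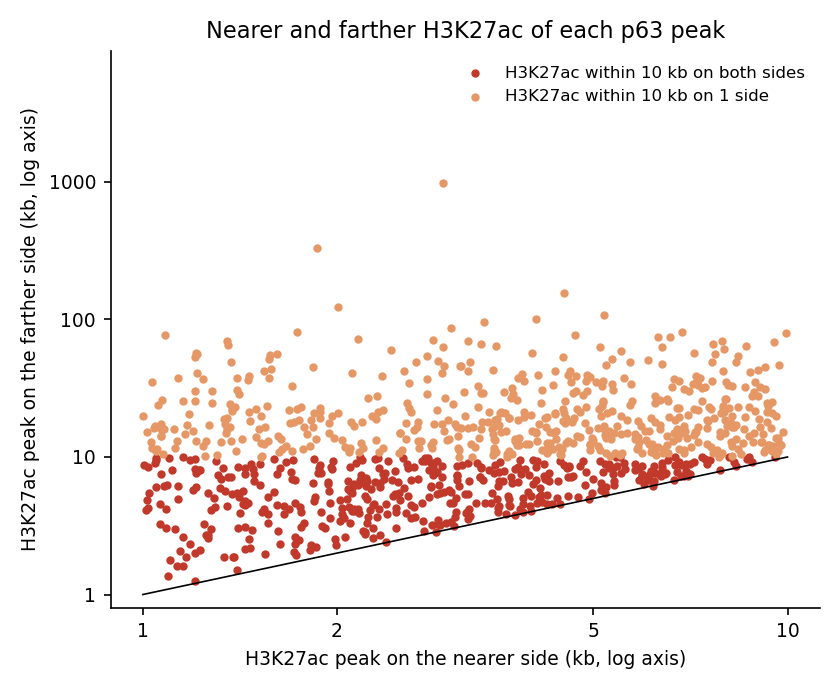
Distance in kb to the H3K27ac peak on the nearer side (horizontal) and on the farther side (vertical) for each of the 981 p63 peaks, both on log axes; the line marks equal distances. The 436 red points have H3K27ac within 10 kb on both sides and the 545 orange points on 1 side, the highest at 978 kb on the farther side.

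The H3K27ac peak next to a member was usually a narrow peak on its own. Its median width was 188 bases (quartiles 154 and 240), against 455 bases for the H3K27ac peaks met by overlapping p63 peaks, 268 and 212 bases next to p63 peaks with H3K27ac within 1 kb on both sides and on 1 side, and 181 bases next to p63 peaks at 10 kb or more. All H3K27ac peaks together had a median of 191 bases. The nearest peak was at the list's minimum width of 150 bases for 21.8% of members (interval 19.3 to 24.5%), against 21.7% of all H3K27ac peaks. In these 2 measures the acetylated sites next to members were close to the list as a whole, and their median was under that of sites next to p63 peaks within 1 kb. A wide H3K27ac peak offers more bases to overlap, which was not allowed for in the 455 bases.

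For 801 members (81.7%, interval 79.1 to 84.0%) no second H3K27ac peak lay within 1 kb of the nearest one, as was the case for 62.3% of all H3K27ac peaks. A lone H3K27ac peak borders more open sequence, and of the sequence 1 to 10 kb from H3K27ac 87.0% had such a lone peak as its nearest. In that sequence the nearest peak had a median width of 177 bases and the smallest width in 27.9% of positions. Set against it, the peaks next to p63 were a little wider and less often alone. That sequence lay farther from H3K27ac than the members, and these contrasts were not matched for distance. The 981 members pointed to 976 different H3K27ac peaks, 5 of which were nearest to 2 members each.

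Broad H3K27ac peaks were rarely the nearest ones. The nearest peak was 500 bases or wider for 30 members (3.06%, interval 2.15 to 4.33%) and 1000 bases or wider for 5 (0.510%, interval 0.218 to 1.19%), against 7.42% and 1.91% of all H3K27ac peaks. In the sequence 1 to 10 kb from H3K27ac these shares were 2.54% and 0.538%, both inside the members' intervals. The 5 were chosen for naming after their values were seen. Of these, chr5:93527367-93527486 lay 3921 bases from an H3K27ac peak of 1882 bases, the widest next to any member. The others were chr14:55548679-55548876 (2434 bases from a peak of 1379 bases), chr6:143110708-143110891 (4188 bases from a peak of 1196), chr16:44567302-44567464 (8324 bases from a peak of 1167) and chr11:23209094-23209228 (1460 bases from a peak of 1086).

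The acetylated site next to a member carried a p63 peak of its own about as seldom as H3K27ac peaks in general. The nearest H3K27ac peak overlapped another p63 peak for 4 members (0.408%, interval 0.159 to 1.04%) and lay within 1 kb of another p63 peak for 22 (2.24%, interval 1.49 to 3.37%). In the whole list 0.839% of H3K27ac peaks overlapped p63 and 2.92% lay within 1 kb of it, both inside the members' intervals. The 4, also named after their values were seen, were chr7:25387000-25387215, chr11:3460221-3460449, chr11:68890193-68890410 and chr14:55548679-55548876. In each of them the next p63 peak, which overlaps that H3K27ac peak, was 2.1, 4.96, 1.78 and 2.67 kb away, in that order.

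Around the members acetylation was moderate over long distances, between that of the p63 peaks nearer to H3K27ac and that of the far ones. Within 50 kb of a member there were a median of 11 H3K27ac peaks (quartiles 7 and 17), against 22 for overlapping p63 peaks, 20 and 14 for those with H3K27ac within 1 kb on both sides and on 1 side, and 4 for those at 10 kb or more. The sequence 1 to 10 kb from H3K27ac, not matched to the members for distance, had a median of 7. With only rows 1 to 91878 of the H3K27ac list the median for the members was 7. Members at 1 to 2 kb had 13, those at 2 to 5 kb 11 and those at 5 to 10 kb 9, so the count declined with distance among the members too.

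The count within 50 kb contains the stretch that the rule itself clears, so H3K27ac was also measured from 20 to 100 kb on both flanks, outside the distances of the rule. There 3.23% of bases were covered by H3K27ac around members, against 5.35% around overlapping p63 peaks, 4.91% and 3.82% around those with H3K27ac within 1 kb on both sides and on 1 side, 1.80% around those at 10 kb or more, and 1.87% in the whole span. Of the whole span, 41.6% lies at 10 kb or more from H3K27ac, so the 1.87% is not matched to the members for distance. Per peak the median coverage was 2.51% around members (order-statistic 95% interval 2.33 to 2.65%, quartiles 1.36 and 4.31%). It was 3.01% (interval 2.76 to 3.16%) with H3K27ac within 1 kb on 1 side and 1.28% (interval 1.1 to 1.43%) at 10 kb or more. The 3 intervals did not overlap. The classes and this coverage come from the same H3K27ac list, so the order of the classes is not independent of the rule. Coverage from 20 to 100 kb was not measured for the sequence 1 to 10 kb from H3K27ac. Neighbouring p63 peaks share these flanks, so the intervals are too narrow, and with 1 library of each kind no test between samples was possible.

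**Figure D3:**
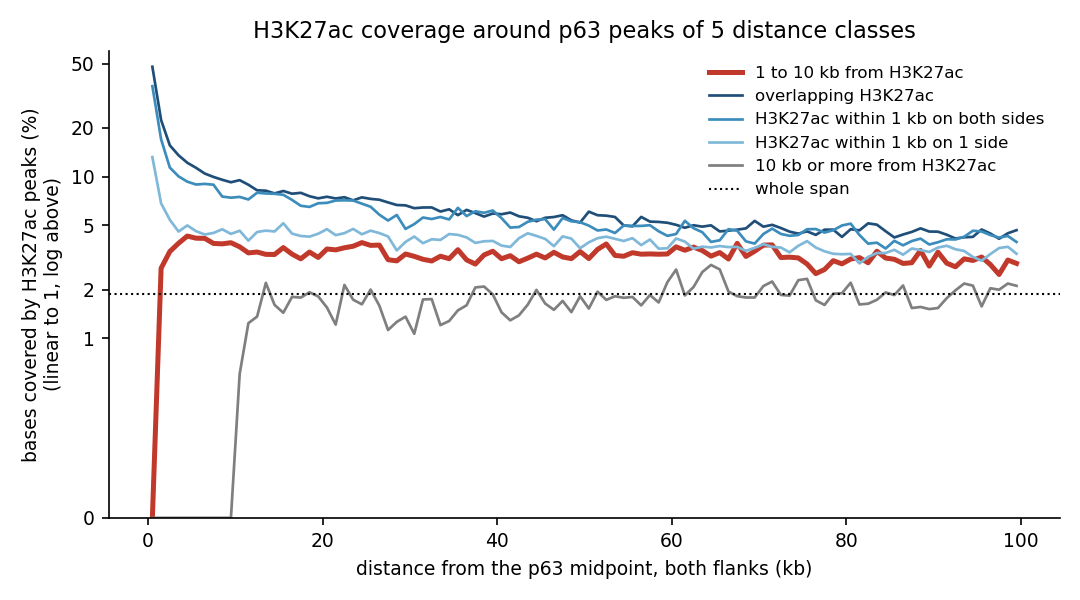
Percentage of bases covered by H3K27ac peaks in steps of 1 kb from the p63 midpoint, both flanks together (horizontal axis in kb; vertical axis linear to 1 and logarithmic above), for the 5 distance classes of p63 peaks; the dotted line is the 1.87% of the whole span. Around p63 peaks 1 to 10 kb from H3K27ac (red) coverage was 3.23% from 20 to 100 kb, above the dotted line and below the classes nearer to H3K27ac, while the far class averaged 1.80%.

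The 5 members with the most acetylated bases within 50 kb were named by rule, so their dense neighbourhoods follow from the choice. The first, chr2:157290050-157290205, had 44 H3K27ac peaks covering 26.2 kb within 50 kb and lay 1262 bases from the nearest of them, in a free stretch of 4.00 kb. The next, chr7:30227731-30227898, had 69 H3K27ac peaks covering 22.6 kb and lay 1133 bases from the nearest. Then came chr12:113874452-113874605, chr11:68890193-68890410 and chr5:125670859-125671046, with 18.4, 17.9 and 17.3 kb covered. The peak on chromosome 12 was the only 1 of the 5 in a free stretch over 10 kb (24.6 kb), with its nearest H3K27ac peak 8549 bases away. The other 4 lay in free stretches of 3.85 to 6.22 kb.

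At the other end, 5 members had a single H3K27ac peak within 50 kb. They were chr3:93161280-93161439, chr4:17003665-17003846, chr11:111270912-111271116, chr12:44793853-44793997 and chr14:53275859-53276079, and each lone H3K27ac peak was between 155 and 271 bases wide. Among them, the peaks on chromosomes 4, 11 and 14 had no H3K27ac from 20 to 100 kb. The longest free stretch around any member, 981 kb, was that of chr14:53275859-53276079, which lay 2922 bases from an H3K27ac peak of 157 bases. It was followed by 331 kb around chr17:13735843-13736018 and 161 kb around chr4:17003665-17003846. For the 5 sites with a single H3K27ac peak within 50 kb, membership rested on that peak, whereas the peak on chromosome 17 had 2 H3K27ac peaks within 10 kb. The 5 were named after their values were seen, and the 3 longest stretches by rule.

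The p63 peaks themselves were narrow. Members had a median width of 168 bases (order-statistic 95% interval 163 to 171, quartiles 137 and 203), against 198 bases (interval 195 to 202) for overlapping p63 peaks, 183 (interval 176 to 191) and 176 (interval 171 to 181) for those with H3K27ac within 1 kb on both sides and on 1 side, and 171 (interval 163 to 179) for those at 10 kb or more. The intervals of the members and of the far peaks overlapped, while those of the members and of the overlapping p63 peaks were apart. Since overlap counts from 1 base, a wider p63 peak meets it more readily, and this was not allowed for. Of the members, 16.7% (interval 14.5 to 19.2%) were at least 221 bases wide, against 36.5% of overlapping p63 peaks. This share was 15.1% for p63 peaks at 10 kb or more and 25.3% for all p63 peaks. The smallest width, 120 bases, was found in 12.2% of members (interval 10.3 to 14.4%) and 6.18% of overlapping p63 peaks. It was found in 9.85% of p63 peaks at 10 kb or more and 8.89% of all p63 peaks.

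Within the range, the intervals of the median p63 width overlapped at all distances. It had a median of 168 bases at 1 to 2 kb (interval 160 to 175), 169 at 2 to 5 kb (interval 163 to 175) and 164 at 5 to 10 kb (interval 160 to 171). Members with H3K27ac within 10 kb on both sides and on 1 side had medians of 169 and 166 bases.

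**Figure D4:**
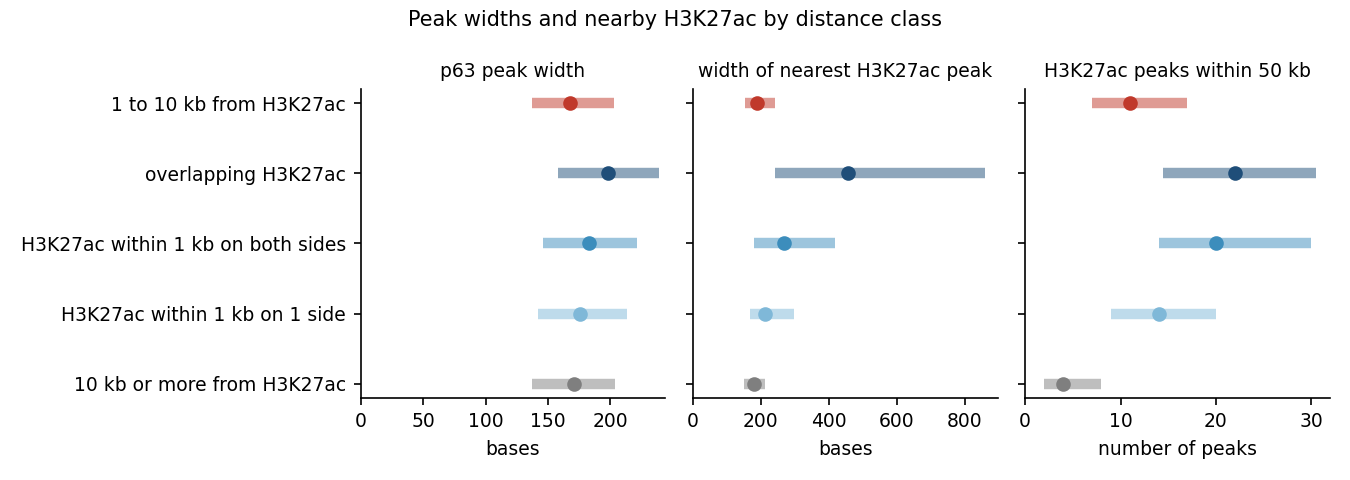
Median (point) and quartiles (bar) of the p63 peak width in bases, of the width in bases of the nearest (for overlapping p63 peaks, the first overlapped) H3K27ac peak, and of the number of H3K27ac peaks within 50 kb, for the 5 distance classes of p63 peaks. The class 1 to 10 kb from H3K27ac, at the top, has medians of 168 bases, 188 bases and 11 peaks, near the class at 10 kb or more in both widths and above its 4 peaks within 50 kb.

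The 10 widest members, from 318 to 388 bases, differed in their surroundings. The widest was chr1:186483406-186483793, 388 bases wide, 6087 bases from an H3K27ac peak of 164 bases and 695 kb from the next p63 peak. It was followed by chr3:31096436-31096815 (380 bases wide), which had H3K27ac at 3819 bases on 1 side and at 37267 bases on the other. The peak chr12:74263919-74264276 (358 bases) lay almost in the middle of a free stretch of 5.16 kb, with H3K27ac at 2416 and 2383 bases. In chr16:14943598-14943933 (336 bases) the nearest H3K27ac peak, 881 bases wide and 1458 bases away, was the widest next to any of the 10. It belonged to 8 H3K27ac peaks each at most 1000 bases from the next, over 6534 bases.

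The other wide members had H3K27ac neighbours of 150 to 296 bases. They were chr17:8559886-8560241 (356 bases), chr19:33049267-33049617 (351 bases), chr12:92901305-92901648 (344 bases), chr11:19773876-19774202 (327 bases), chr2:71432693-71433016 (324 bases) and chr2:166261287-166261604 (318 bases). Of the 10, 3 had another p63 peak within 10 kb: the one on chromosome 16 at 2.86 kb, chr2:166261287-166261604 at 5.41 kb and chr12:92901305-92901648 at 8.13 kb. The first 2 of these neighbours had H3K27ac within 1 kb on both sides or overlapped it, while the last was 10 kb or more from H3K27ac. A wide p63 peak at these distances was thus found with and without other p63 peaks nearby.

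The members were mostly solitary. Another p63 peak lay within 10 kb of 70 of them (7.14%, interval 5.69 to 8.92%), against 21.9% (interval 19.8 to 24.1%) of overlapping p63 peaks, 17.8% and 11.8% of those with H3K27ac within 1 kb on both sides and on 1 side, and 8.0% (interval 5.52 to 11.5%) of those at 10 kb or more. The median distance to the next p63 peak was 123 kb for members (interval 108 to 134 kb), against 48.9 kb for overlapping p63 peaks and 221 kb for far ones. By the median distance the members stood between the p63 peaks at acetylated sites and the far ones. At short range the order of members and far peaks was not settled. The members' share with a p63 neighbour within 10 kb was the lowest of the 5 classes, but close to that of the far peaks. The same held within 5 kb, with 3.26% of members (interval 2.32 to 4.57%) against 5.54% of far peaks (interval 3.53 to 8.58%). At both ranges the intervals of members and far peaks overlapped. Of the 26 far peaks with a p63 neighbour within 10 kb, 24 had a far peak as that neighbour. The far share was not recounted without the windows crowded with p63 peaks that are described below. The share with a p63 neighbour within 10 kb was 9.30% (interval 6.33 to 13.5%) at 1 to 2 kb from H3K27ac and 3.79% (interval 2.13 to 6.66%) at 5 to 10 kb, 2 intervals that overlap slightly.

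Where a member did have a p63 neighbour within 10 kb, that neighbour mostly overlapped or lay within 1 kb of H3K27ac, as for p63 peaks in general. Of the 70 nearest neighbours, 23 overlapped H3K27ac, 9 had H3K27ac within 1 kb on both sides and 23 on 1 side, 13 were members themselves and 2 were at 10 kb or more. The neighbour thus overlapped or lay within 1 kb of H3K27ac for 55 of 70 members (78.6%, interval 67.6 to 86.6%), against 506 of all 603 p63 peaks with such a neighbour (83.9%, interval 80.8 to 86.6%). Within this total the classes differed. The neighbour overlapped H3K27ac for 32.9% of the 70 (interval 23.0 to 44.5%), against 52.9% of the 603 (interval 48.9 to 56.9%). It had H3K27ac within 1 kb on 1 side for 32.9% (interval 23.0 to 44.5%), against 17.6% (interval 14.7 to 20.8%). Joined at most 10 kb apart, these p63 peaks formed 62 runs of 2 or 3 peaks. In 56 of the runs, with 60 of the 70 members, at least 1 p63 peak overlapped or lay within 1 kb of H3K27ac. The rule fixes part of this, since any p63 peak near the acetylated site next to a member can also be near that member.

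No run held more than 2 members, and 8 runs held 2. The first 5 in genome order were named by rule. The run chr2:137232357-137239506 had 2 members, 1.70 kb apart, and another p63 peak 686 bases from H3K27ac. In chr4:136834033-136838898 the 2 members lay 0.873 kb apart on the same side of an H3K27ac peak of 297 bases. The other 3 named runs held members only: chr4:102654329-102654677 and chr10:90697198-90697773, where the 2 peaks were 68 and 246 bases apart, and chr4:141291615-141298030, where they were 6.12 kb apart. The remaining run of members only was chrX:149151910-149161400. Windows of 100 kb with 5 or more p63 peaks and at most 1 H3K27ac peak held no member: without their 16 p63 peaks the count stayed at 981.

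Members were found on all 20 chromosomes of the lists. Their share of the p63 peaks of a chromosome averaged 24.0% ± 3.58 (SD, 19 autosomes), from 18.7% on chromosome 11 to 33.7% on chromosome 6. The Wilson interval held the 23.8% of all p63 peaks on 18 of 20 chromosomes. The exceptions were chromosome 6, with 67 of 199 p63 peaks (interval 27.5 to 40.5%), and chromosome 11, with 51 of 273 (interval 14.5 to 23.7%). Of 20 such intervals, about 1 misses by counting error alone. Chromosome 11 had the most H3K27ac peaks per Mb of any chromosome, 105, and chromosome 6 had 65.7. Whether the share of members goes with H3K27ac peaks per Mb was not tested. On chromosome X 16 of 51 p63 peaks were members (31.4%, interval 20.3 to 45.0%), which comes to 0.0992 per Mb, against 0.404 ± 0.0529 per Mb on the autosomes (SD, 19 autosomes). The 51 p63 peaks of any class, over 161 Mb, were the fewest of any chromosome. Chromosome X also had the fewest H3K27ac peaks per Mb, 30.9.

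**Figure D5:**
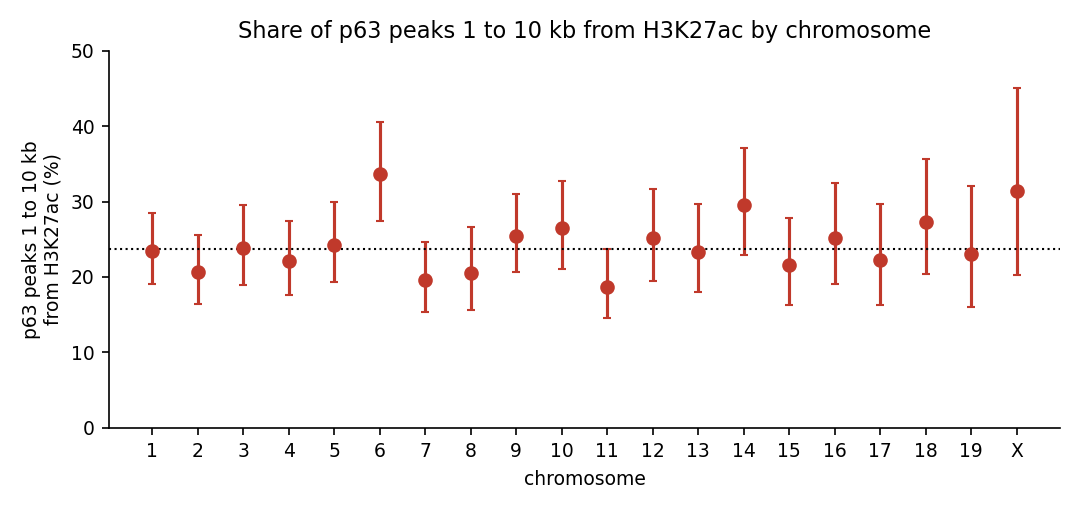
Percentage of the p63 peaks of each chromosome that lay 1 to 10 kb from H3K27ac, with Wilson 95% intervals as bars; the dotted line marks the 23.8% of all p63 peaks. Chromosome 6, at 33.7%, lies above the line with its whole interval, chromosome 11, at 18.7%, lies just below it, and the other 18 intervals hold it.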

How the data were processed

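Per the labels' protocols, the immunoprecipitations were run with a kit on a robot. The submitters' processing notes name Bowtie 1.1.1, MACS2 2.1.0 and the build mm9; settings, thresholds and filters are not stated there. The 2 lists the authors deposited hold 3 columns (chromosome, start and end in bases) and no score. The gene table at hand is on GRCm38, and on chromosome 7 its last gene ends before 1072 of the H3K27ac peaks. It was therefore not used for these positions, peaks have no gene names, and no sequence or p63 motif was read. Starts are printed counted from 1. Distances equalled those of bedtools 2.31.1 for all 4130 p63 peaks and were tested on simulated data. Shares carry Wilson, densities exact Poisson and medians binomial order-statistic 95% intervals. Peaks were named by rule: those at the bounds, the 10 widest, the 5 with most H3K27ac within 50 kb, the 3 longest free stretches and up to 5 runs; others are marked. The members, quantities and lists were chosen with earlier results of these data known. Density per Mb, sequence read every 1000 bases and coverage from 20 to 100 kb were added after the lists were seen. The software was scipy 1.17.1, pandas 2.3.3 and numpy 2.4.6 under Python 3.11.15.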

Additional observations from a re-analysis of the deposited data

How the results depend on the processing

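Of 60 values recomputed under 15 settings, for 6 results, 41 stayed within 1.5 times the count or within the 95% interval of the value. Some of the 41 could not move. Joining H3K27ac peaks at most 1000 bases apart leaves each member's distances and p63 width as they were. The windows with many p63 peaks and at most 1 H3K27ac peak held no member. The number of p63 peaks in the class, 981, ran from 691 to 1079 over 9 settings. With H3K27ac peaks wider than 150 bases it was 986, of which 894 were among the 981, and with only rows 1 to 91878 of that list 964, of which 667 were among them, so that membership shifts more than the count. The share with H3K27ac on both sides became 36.5% with wider H3K27ac peaks, 26.1% with the first rows, 40.5% with a lower bound of 2000 bases, 53.0% with an upper bound of 5000 bases, and 16.1% or 76.7% when both sides meant within 5 or 20 kb. The median number of H3K27ac peaks within 50 kb became 9 with joined or wider H3K27ac peaks, 7 with the first rows and 12 with the upper bound of 5000 bases; within 20 or 100 kb it was 4 or 22. The median width of the nearest H3K27ac peak became 197 bases with joined peaks, 204 with wider ones and 202 with the first rows. The share with another p63 peak became 10.4% with the first rows, and 3.26% or 28.8% within 5 or 50 kb. Without p63 peaks of the smallest width the median p63 width was 175 bases. No alternative for the motif was run. No paired analysis was possible because there is 1 library per group. Read depth is not known, so the absence of a called peak does not show absence of the mark.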
